A study of Arabidopsis thaliana with 15 samples.

Results

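Transcripts of 6 genes for the synthesis of tocopherol (vitamin E) were followed through a cercosporin dose series in Arabidopsis thaliana. The genes were chosen by identifier, as the 5 VITAMIN E DEFICIENT genes VTE1 (AT4G32770), VTE2 (AT2G18950), VTE3 (AT3G63410), VTE4 (AT1G64970) and VTE5 (AT5G04490) together with HPD (AT1G06570). All 6 stood in the count table, which holds 14190 genes. The rule used no measured value, but the members were chosen with earlier results of these data known. The study used bulk MARS-seq, which counts sequencing reads near the 3' end of polyadenylated transcripts, on whole wild-type Col-0 seedlings aged 2 weeks. The controls received no agent, and the other groups received cercosporin, a red toxin of Cercospora fungi that makes singlet oxygen when light strikes it, at 0.1, 1, 10 or 100 µM. Each of the 5 groups had 3 libraries. Treated seedlings were held in the toxin without light for 1 h, rinsed with water 3 times and then lit at 30 µE for 30 min, whereas control plates were lit throughout. Toxin, light and handling thus all differ between any dose and the controls, while the 4 doses share 1 regime. No source used here says that the replicates were separate cultures, so p-values measure only the spread between these libraries, which may be technical.

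Tocopherols are lipid antioxidants of the chloroplast, made at the inner envelope and in plastoglobules, and they quench singlet oxygen and stop chains of lipid peroxidation. The ring comes from tyrosine through homogentisate, which HPD makes, and the tail comes from phytol, which VTE5 phosphorylates when chlorophyll is taken apart. VTE2 joins ring and tail, VTE3 adds a methyl group to the ring, VTE1 closes the second ring and VTE4 adds the last methyl group, which gives alpha-tocopherol.

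The libraries held 1044626 to 2922199 counts at 100 µM, 1689357 to 2243950 in the controls and 834190 to 4554702 in all, so that 1 count was worth 0.221 to 1.137 CPM (counts scaled to the TMM-adjusted library total). On the first principal component (51.0% of the variance) the 100 µM libraries lay at 74.4 to 104.8 and all others at -32.4 to -13.7. On the second component, with 11.2%, replicate 1 of 100 µM lay at 59.7, and its replicates 2 and 3 lay at -41.9 and -30.8. The 100 µM libraries also carry a digit of their own in the sample codes, which the labels do not explain, and dose and digit cannot be told apart there. The libraries of 10 µM all carry the digit 8, and those of 0.1 and 1 µM all carry the digit 7. Dose and digit thus cannot be told apart between 10 µM and these doses either. Replicates 1, 2 and 3 of the controls carry 7, 8 and 7. The summed level of 7 leaf markers was 19595 to 30929 CPM at 100 µM and 24435 to 37346 CPM in the controls. RBCS1A, with a mean of 18309.5 CPM in the controls, weighs most in that sum. It had 5255, 16852 and 17081 CPM in replicates 1, 2 and 3 of 100 µM. Each of the 7 had counts in both groups, and 3 of the 7 were called higher than in the controls and none lower. The summed level of the 6 root markers present was 111 to 226 CPM at 100 µM and 105 to 121 CPM in the controls, and each of the 6 had counts in both groups, although COBL9 was at 0 in replicate 1 of the controls. Of the 5 root markers tested, 2 were called higher at 100 µM, PYK10 with a log2 change of 2.26 ± 0.32 and EXPA7 with 1.26 ± 0.43 (SE). The part of tissue makeup in the results below was not tested.

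At 100 µM, HPD, which acts on the ring side, and VTE5, which acts on the tail side, were called higher than in the controls. HPD rose about 2.56-fold, to 234 ± 67.9 CPM at 100 µM, against 92.0 ± 15.2 CPM in the controls (SD, n = 3 each). VTE5 had 8.22 ± 3.93 CPM at 100 µM and 1.11 ± 0.964 CPM in the controls. However, it passed the filter on low counts only with the 100 µM libraries included, as 1 of 758 such genes, of which 77.3% were called higher. VTE3 and VTE1, which act after ring and tail are joined, did not pass the test in either direction, and VTE2 and VTE4 were too low for it. At 0.1, 1 and 10 µM no member was called.

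**Figure D1:**
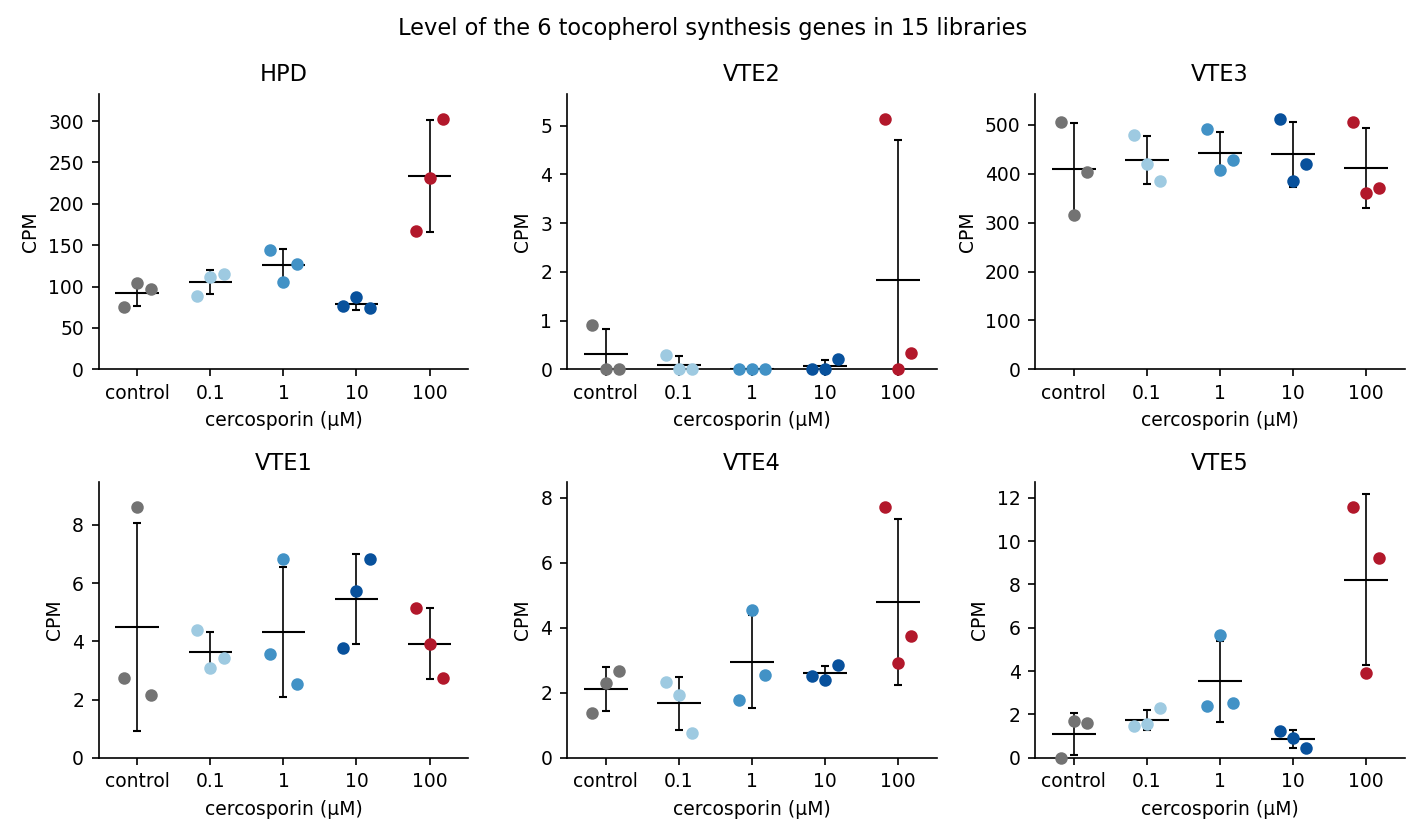
CPM of each of the 6 genes (y axis from 0, its own scale in each panel) in the controls and at 4 cercosporin doses (x axis), with 1 point per library, a line at the group mean and bars of ± SD (n = 3), cut at 0 where they would go below it. The 3 HPD points at 100 µM (167 to 303 CPM) lie above all 12 others, and the VTE3 points of all 5 groups overlap.

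HPD, 4-hydroxyphenylpyruvate dioxygenase, forms homogentisate, the shared ring precursor of tocopherols and plastoquinone. Its level in replicates 1, 2 and 3 was 74.9, 103.9 and 97.3 CPM in the controls, 88.3, 112 and 115 CPM at 0.1 µM, 144, 106 and 128 CPM at 1 µM, 76.2, 87.8 and 73.9 CPM at 10 µM, and 167, 231 and 303 CPM at 100 µM. The 3 libraries at 100 µM stood above each of the other 12, and the libraries of 10 µM lay within or close to the range of the controls. By group mean the order was 10 µM, control, 0.1 µM, 1 µM and 100 µM, with overlapping ranges between all neighbours except 1 and 100 µM. These levels rest on 93 to 889 counts per library.

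In edgeR's quasi-likelihood test with Benjamini-Hochberg adjustment over 10374 genes, HPD was higher at 100 µM than in the controls by 1.36 ± 0.21 (log2 ± SE, 95% interval 0.95 to 1.77, adjusted p = 7.98e-05). Against the 3 lower doses, which had the same light regime, it was higher by 1.21 ± 0.16 (edgeR adjusted p = 6.65e-06). Without replicate 1 of 100 µM, the library apart on the second component, the difference from the controls was 1.54 ± 0.18 (edgeR adjusted p = 2.19e-06). Of all genes tested, 32.7% were called at 100 µM against the controls (18.1% higher, 14.6% lower), and 42.3% against the lower doses (23.1% higher, 19.2% lower), so a call at this dose was common. In whole seedlings, more cells of a type that holds a transcript and more RNA per cell cannot be told apart.

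In the TAIR10.1 annotation the 3' end of HPD lies inside AT1G06560 on the opposite strand, and whether the counting used strand is not given in the sources used here. AT1G06560 itself had 3.57 ± 3.21 CPM at 100 µM and 5.94 ± 1.86 CPM in the controls (SD, n = 3 each), with a log2 change of -0.46 ± 0.49 (edgeR adjusted p = 0.511). No transcript end in the annotation was nearly identical to that of HPD or of any other member.

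VTE5, phytol kinase, starts the return of phytol from chlorophyll to the tocopherol tail. Its counts in replicates 1, 2 and 3 were 0, 3 and 3 in the controls, 5, 4 and 6 at 0.1 µM, 4, 5 and 8 at 1 µM, 2, 3 and 2 at 10 µM, and 18, 4 and 27 at 100 µM. In CPM these were 0, 1.72 and 1.61 in the controls, 1.46, 1.54 and 2.29 at 0.1 µM, 2.38, 5.69 and 2.54 at 1 µM, 1.26, 0.903 and 0.441 at 10 µM, and 11.6, 3.90 and 9.20 at 100 µM. All 3 libraries at 100 µM lay above those of the controls, 0.1 and 10 µM, but replicate 2 of 100 µM lay below replicate 2 of 1 µM, the smallest library. The count of 0 in 1 control allows up to 1.38 CPM there (3 counts), for counting error only. The order of the means was the same as for HPD, 10 µM, control, 0.1 µM, 1 µM and 100 µM, and among neighbours only 0.1 and 1 µM did not overlap.

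VTE5 was higher at 100 µM by 2.97 ± 0.66 against the controls (95% interval 1.68 to 4.26, edgeR adjusted p = 0.002) and by 2.37 ± 0.44 against the lower doses (edgeR adjusted p = 0.000283). It reached the filter level in replicates 1 and 3 of 100 µM and in replicate 2 of 1 µM, and did not pass without the 100 µM libraries. Such genes enter the test because of their counts at 100 µM. Of the 758, 77.3% were called higher against the controls and 88.9% against the lower doses. In a fit with no such filter the difference from the controls was 2.88 (edgeR adjusted p = 0.00327). Without replicate 1 of 100 µM it was 2.69 ± 0.74 (edgeR adjusted p = 0.0081). Hence 4 of the 6 members were tested, with HPD and VTE5 called higher and none lower in both comparisons of 100 µM. Of the 3 members that also pass the filter without the 100 µM libraries, 1 (HPD) was called higher in both comparisons. Of the 9616 such genes, 13.4% were called higher against the controls and 17.9% against the lower doses.

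VTE2, homogentisate phytyltransferase, commits homogentisate to tocopherol, and it was close to undetected. Its counts in replicates 1, 2 and 3 were 2, 0 and 0 in the controls, 1, 0 and 0 at 0.1 µM, 0 in each at 1 µM, 0, 0 and 1 at 10 µM, and 8, 0 and 1 at 100 µM. Replicate 1 of 100 µM thus held 8 of the 9 counts at that dose, and no other library held more than 2. The counts of 0 at 1 µM allow up to 0.954 to 3.41 CPM per library (3 counts). In the fit with no filter, 100 µM differed from the controls by 2.16 ± 1.40 (edgeR adjusted p = 0.262) and from the lower doses by 3.97 ± 1.20 (edgeR adjusted p = 0.0122), a call in which 1 library carries nearly all counts.

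VTE3, the methyltransferase of the inner envelope that acts in both tocopherol and plastoquinone synthesis, had at least 358 counts in every library. Its level in replicates 1, 2 and 3 was 506, 316 and 405 CPM in the controls, 480, 421 and 384 CPM at 0.1 µM, 491, 407 and 429 CPM at 1 µM, 513, 386 and 420 CPM at 10 µM, and 506, 361 and 370 CPM at 100 µM. The ranges of all 5 groups overlapped, and the group means lay between 409 ± 94.9 CPM in the controls and 442 ± 43.6 CPM at 1 µM (SD, n = 3 each). The difference of 100 µM from the controls was 0.02 ± 0.18 (log2 ± SE, edgeR adjusted p = 0.959), with a 95% interval of -0.34 to 0.38. That interval lies wholly below the interval for HPD. Against the lower doses the difference was -0.08 ± 0.15 (edgeR adjusted p = 0.709). The 3' end of VTE3 lies inside AT3G63400 on the opposite strand, which had 84.4 ± 28.6 CPM at 100 µM and 89.9 ± 6.81 CPM in the controls.

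VTE1, tocopherol cyclase, closes the chromanol ring. It was low, with counts in replicates 1, 2 and 3 of 6, 15 and 4 in the controls, 15, 8 and 9 at 0.1 µM, 6, 6 and 8 at 1 µM, 6, 19 and 31 at 10 µM, and 8, 4 and 8 at 100 µM. The means were 4.51 ± 3.57 CPM in the controls, 3.64 ± 0.675 CPM at 0.1 µM, 4.31 ± 2.24 CPM at 1 µM, 5.44 ± 1.55 CPM at 10 µM and 3.92 ± 1.21 CPM at 100 µM, and the ranges of all groups next to each other in level overlapped. At 100 µM the difference from the controls was -0.22 ± 0.55 (edgeR adjusted p = 0.797), and its 95% interval of -1.30 to 0.86 spans both lower and higher levels. At this depth a change of VTE1 of any size within that interval is compatible with the counts.

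VTE4, gamma-tocopherol methyltransferase, makes alpha-tocopherol, the main form in Arabidopsis leaves. Its counts in replicates 1, 2 and 3 were 3, 4 and 5 in the controls, 8, 5 and 2 at 0.1 µM, 3, 4 and 8 at 1 µM, 4, 8 and 13 at 10 µM, and 12, 3 and 11 at 100 µM. In CPM the 3 libraries at 100 µM had 7.71, 2.92 and 3.75, against 1.38, 2.30 and 2.69 in the controls. The groups did not overlap, but replicate 2 of 100 µM held 3 counts, each worth 0.975 CPM. Less than 1 count parts it from the highest control. The highest library of 1 µM, at 4.55 CPM, lay above 2 of those of 100 µM. VTE4 did not pass the filter. With no filter it differed by 1.11 ± 0.58 from the controls (edgeR adjusted p = 0.156) and by 0.96 ± 0.44 from the lower doses (edgeR adjusted p = 0.0838). Replicate 1 of 100 µM was the highest of all 15 libraries for VTE2, VTE4 and VTE5 and the lowest of its group for HPD.

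At the lower doses none of the 4 members tested was called, where 0.00964% of all genes tested were called at 10 µM, 0.183% at 1 µM (0.0482% higher, 0.135% lower) and 0% at 0.1 µM. At an unadjusted p under 0.05, edgeR counted 560 genes at 10 µM, 662 at 1 µM and 573 at 0.1 µM. HPD differed from the controls by 0.19 ± 0.21 at 0.1 µM (edgeR adjusted p = 0.967), by 0.46 ± 0.21 at 1 µM (adjusted p = 0.761) and by -0.21 ± 0.21 at 10 µM (adjusted p = 0.981). For VTE5 the values were 0.70 ± 0.77 at 0.1 µM (edgeR adjusted p = 0.967), 1.53 ± 0.76 at 1 µM (adjusted p = 0.795) and -0.44 ± 0.87 at 10 µM (adjusted p = 0.993). Both genes thus had their lowest estimate at 10 µM, and these comparisons share the same 3 controls. The 10 µM libraries also differ in code digit from those of 0.1 and 1 µM. VTE3 lay between 0.07 ± 0.18 and 0.11 ± 0.18 at these doses, and VTE1 between -0.26 ± 0.51 and 0.36 ± 0.49.

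**Figure D2:**
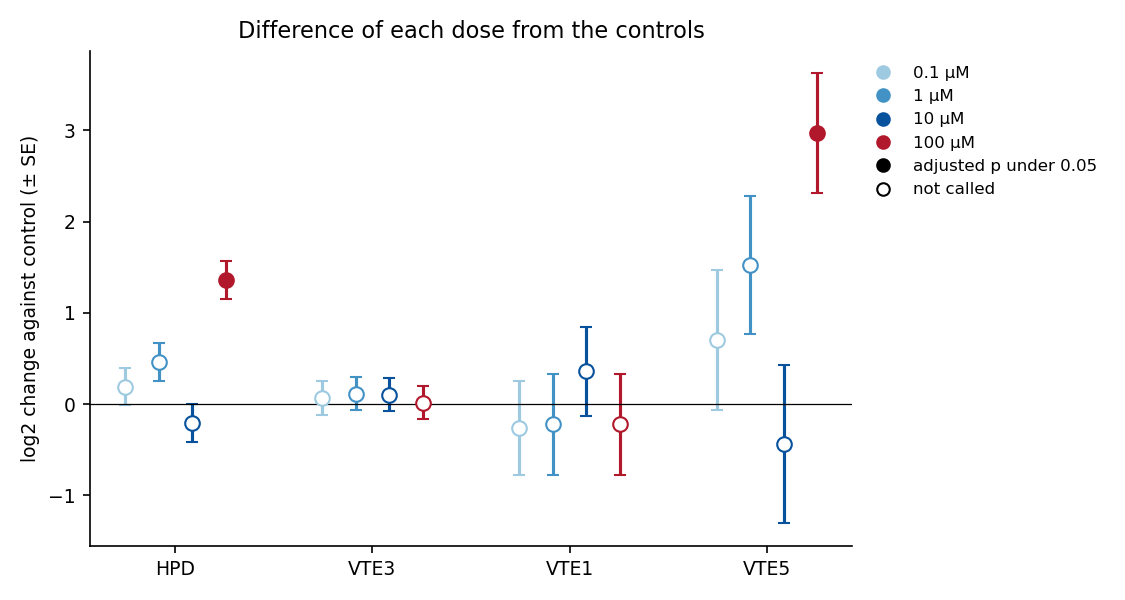
Log2 change of the 4 members tested at each cercosporin dose against the controls (y axis; bars are ± SE from the edgeR fit over 15 libraries). Filled points passed an adjusted p of 0.05, which only HPD (1.36) and VTE5 (2.97) did, both at 100 µM.

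In the joint test of all 4 doses against the controls, HPD (edgeR adjusted p = 4.2e-05) and VTE5 (edgeR adjusted p = 0.00131) were called, where 31.4% of all genes tested were. The slope over the 12 treated libraries was 0.31 ± 0.12 log2 per 10-fold dose for HPD (edgeR adjusted p = 0.087) and 0.63 ± 0.25 for VTE5 (edgeR adjusted p = 0.112). No member passed this test, which called 13% of 10666 genes (10.7% higher, 2.27% lower). These calls turned on single libraries, and the code digit changes along the doses as well. Without replicate 3 of 10 µM, the slopes of HPD (0.33, edgeR adjusted p = 0.0368) and VTE5 (0.66, edgeR adjusted p = 0.0415) passed, and without replicate 1 of 10 µM that of HPD did (0.32, edgeR adjusted p = 0.0484). Without replicate 3 of 100 µM the slope of HPD was 0.18 (edgeR adjusted p = 0.346).

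The level of HPD relative to VTE3 can be read within each library, since both genes had at least 93 counts in each of them. This ratio was added after the data were seen. For every 100 counts of VTE3, replicates 1, 2 and 3 held 14.8, 32.85 and 24.0 counts of HPD in the controls, 18.4, 26.6 and 29.95 at 0.1 µM, 29.4, 26.0 and 29.8 at 1 µM, 14.85, 22.8 and 17.6 at 10 µM, and 33.04, 64.05 and 81.9 at 100 µM. Replicate 1 of 100 µM barely exceeded replicate 2 of the controls, and the other libraries of 100 µM stood well above all others. The log2 ratio was higher by 1.26 at 100 µM than at the lower doses and by 1.296 than in the controls, given with no test because the pair was chosen after its values were seen.

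**Figure D3:**
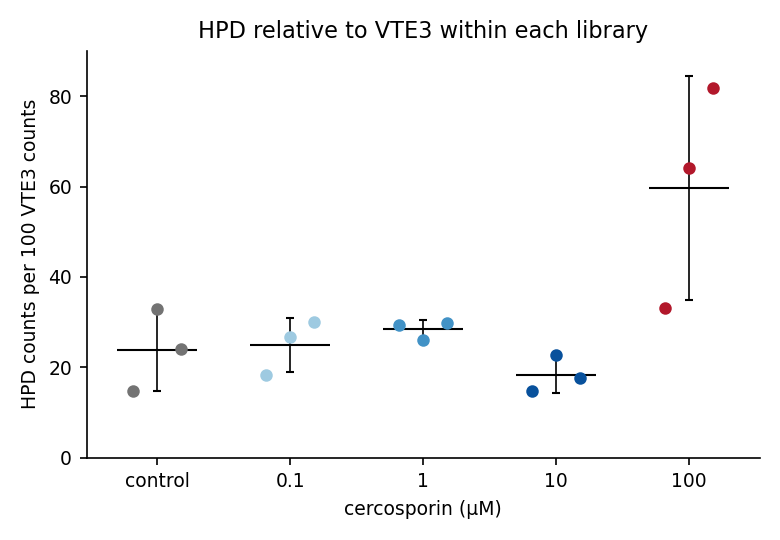
Counts of HPD per 100 counts of VTE3 in each library (y axis from 0) in the controls and at 4 cercosporin doses (x axis), with 1 point per library, a line at the mean and bars of ± SD (n = 3). The points at 100 µM run from 33.04 to 81.9, and those of the 12 other libraries from 14.8 to 32.85.

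Across libraries, Pearson's r of log2 CPM between HPD and VTE5 was 0.80 over all 15 and 0.71 over the 12 other than 100 µM. The other pairs among the 4 members tested had r between -0.31 and 0.02 over 15 libraries and between -0.50 and 0.12 over 12. These are descriptions, since all genes share the depth and the scaling of a library, and the libraries differ in dose and code digit. The levels most like HPD were those of AT5G55970 (r = 0.97 over 15 libraries, 0.93 over 12), YSL7 (AT1G65730, 0.96 and 0.81) and ATL8 (AT1G76410, 0.94 and 0.88). For VTE5 they were AT4G05150 (0.92 and 0.88), AT3G04350 (0.92 and 0.84) and AT5G27920 (0.91 and 0.82). For VTE3 they were PSBTN (AT3G21055, 0.88 and 0.93), PSBY (AT1G67740, 0.87 and 0.92) and AT3G04550 (0.86 and 0.84), and for VTE1 they were SSL1 (AT2G41300, 0.76 and 0.74), STY2 (AT4G36260, 0.75 and 0.75) and SADHU5-1 (AT4G01525, 0.69 and 0.69).

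The steps that feed and drain the pathway were followed through 32 further genes in 5 lists, of which 28 were in the table and 24 were tested. At 100 µM against the controls 9 were called higher, or 37.5%, and none lower, beside 18.1% and 14.6% of all genes tested, with a median log2 change of 0.46 beside -0.02 over all genes. For 3 of the 9, TAT7, ISPF and HGO, the gene passed the filter only with the 100 µM libraries included, as with VTE5. Of the 758 such genes 77.3% were called higher. ISPF, like VTE5, reached the filter level in 2 libraries of 100 µM and in replicate 2 of 1 µM. Of the other 21, 6 were called higher, beside 13.4% of all genes of that kind, with a median of 0.33 beside -0.09. Against the lower doses 13 of the 24 were higher and none lower, beside 23.1% and 19.2% of all genes tested. Of these 13, 10 were among the 21, beside 17.9% of all genes of that kind, and 3 were TAT7, ISPF and HGO, beside 88.9% of theirs. At 0.1, 1 and 10 µM none was called. The 5 lists were chosen with earlier results of these data known, so the shares here and below are descriptions only.

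Next to the step of HPD, TAT7 and HGO were called higher at 100 µM, and both are genes that only the 100 µM libraries carried past the filter. TAT7, a tyrosine aminotransferase that makes the substrate of HPD, had 32, 10 and 30 counts at 100 µM, against 2, 2 and 1 in the controls, and a log2 change of 3.89 ± 0.67 (edgeR adjusted p = 0.000233). HGO, homogentisate dioxygenase, which opens the ring and so takes the product of HPD toward breakdown, had 42, 36 and 106 counts at 100 µM, against 2, 4 and 3 in the controls. Its level was 32.7 ± 5.0 CPM at 100 µM and 1.61 ± 0.688 CPM in the controls (SD, n = 3 each), a log2 change of 4.35 ± 0.44 (edgeR adjusted p = 1.07e-06). Each library of 100 µM exceeded all 12 others for both genes. In the annotation the 3' end of HGO overlaps AT5G54090, which had 1.20 ± 0.652 CPM at 100 µM and 0.191 ± 0.331 CPM in the controls.

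Other genes of these steps were low or not called. FAH, fumarylacetoacetase, the last enzyme of tyrosine breakdown, had 4, 3 and 6 counts at 100 µM, against 0, 3 and 1 in the controls, and was not tested. TAT3, the aminotransferase with the highest mean CPM of its list, had a log2 change of -0.57 ± 0.50 (edgeR adjusted p = 0.412), and TYRAAT1, an arogenate dehydrogenase that makes tyrosine, had 0.06 ± 0.58 (edgeR adjusted p = 0.951). TAT2, another aminotransferase, had 8, 6 and 13 counts at 100 µM, against 1, 0 and 0 in the controls, and was not tested in this comparison. On the plastoquinone branch, which also uses homogentisate, SPS1 was the only gene in the table, with -0.12 ± 0.35 (edgeR adjusted p = 0.828).

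**Figure D4:**
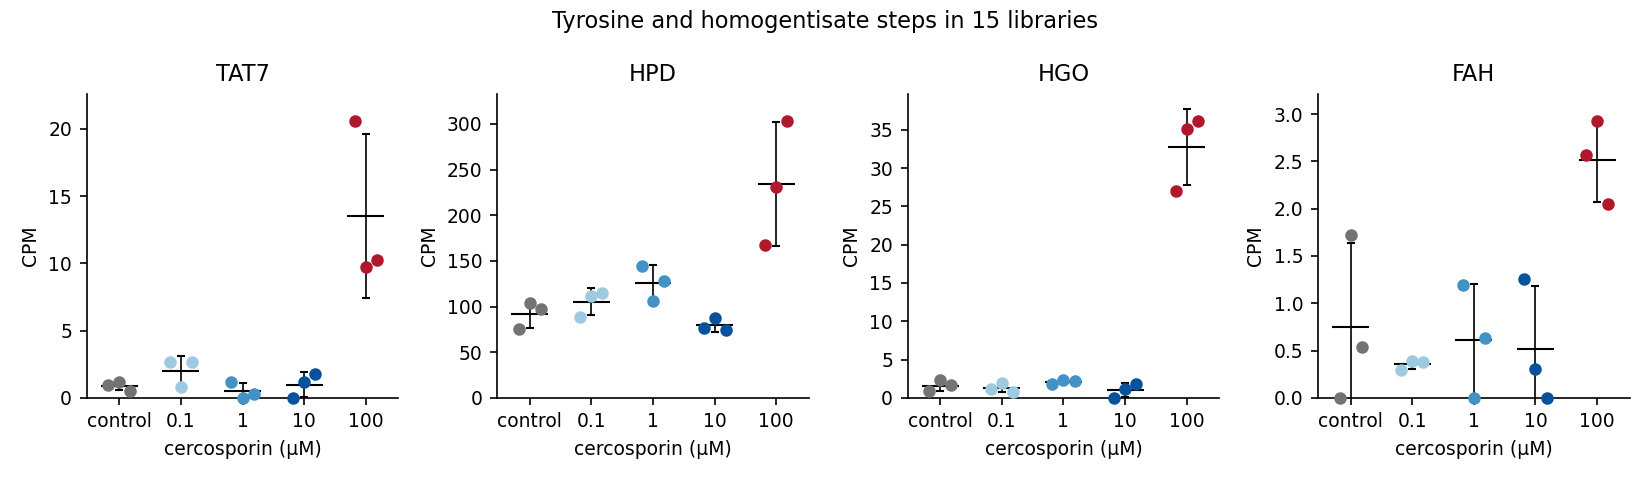
CPM of TAT7, HPD, HGO and FAH (y axis from 0, its own scale in each panel), in pathway order, in the controls and at 4 cercosporin doses (x axis), with 1 point per library, a line at the mean and bars of ± SD (n = 3), cut at 0 where they would go below it. For HGO the points at 100 µM average 32.7 CPM and those of the controls 1.61 CPM, and FAH, with 6 counts or fewer per library, was not tested.

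Among 14 genes in the table for the isoprenoid supply of the plastid and the turnover of phytyl groups, 5 were called higher at 100 µM and none lower, beside 18.1% and 14.6% of all genes tested. Of the 5, ISPF passed the filter only with the 100 µM libraries included. VTE6, phytyl phosphate kinase, which acts directly after VTE5, had 89.4, 72.1 and 70.2 CPM at 100 µM, against 53.8, 48.8 and 48.4 CPM in the controls. It rose by 0.62 ± 0.18 (edgeR adjusted p = 0.0147), a call that did not hold without replicate 1 of 100 µM (0.48, edgeR adjusted p = 0.058), replicate 2 of the controls (0.57, adjusted p = 0.0521) or replicate 3 of the controls (0.57, adjusted p = 0.0605). CHLG, chlorophyll synthase, which attaches the phytyl tail to chlorophyll, rose by 1.67 ± 0.27 (edgeR adjusted p = 0.00016), with 37.9 ± 5.95 CPM at 100 µM and 12.0 ± 1.29 CPM in the controls. PPH, pheophytinase, which frees phytol in senescing leaves, rose by 0.77 ± 0.15 (edgeR adjusted p = 0.000663), with 187 ± 15.04 CPM at 100 µM and 110 ± 7.71 CPM in the controls (SD, n = 3 each).

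ISPF, an enzyme of the methylerythritol phosphate route, had 7, 9 and 11 counts at 100 µM, against 2, 0 and 2 in the controls (2.84 ± 0.87, edgeR adjusted p = 0.0177). The call was lost without replicate 2 of 100 µM (2.47, edgeR adjusted p = 0.0642) or replicate 2 of the controls (2.34, adjusted p = 0.0675). ISPF was tested in only 8 of the 15 fits that left out a library, and was called in 6 of them. In the rest it did not pass the filter. DXS, the first enzyme of the same route, had 47.6, 77.0 and 116 CPM at 100 µM, against 55.6, 47.1 and 52.1 CPM in the controls, so the groups overlapped. Its log2 change of 0.66 ± 0.24 (edgeR adjusted p = 0.0457) passed in 1 of the 15 fits that left out a library, and without replicate 3 of 100 µM it was 0.25 (edgeR adjusted p = 0.424). GGR, geranylgeranyl reductase, which makes the phytyl chain and had the highest mean CPM of the list, did not pass, with 634 ± 55.5 CPM at 100 µM and 560 ± 105 CPM in the controls (0.18 ± 0.16, edgeR adjusted p = 0.408).

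Plastoglobules are the lipid bodies that store tocopherol and hold VTE1. Of their 5 genes tested, FBN1A and FBN1B, which encode coat proteins, were called higher at 100 µM, beside 18.1% of all genes tested. FBN1A had 138, 156 and 139 CPM at 100 µM, against 66.6, 55.1 and 48.9 CPM in the controls, above all 12 other libraries, and rose by 1.34 ± 0.19 (edgeR adjusted p = 2.85e-05). FBN1B, with the highest mean CPM of the list, rose by 0.51 ± 0.17 (edgeR adjusted p = 0.0268), with 250 ± 38.9 CPM at 100 µM and 176 ± 22.5 CPM in the controls. That call was lost without replicate 1 of 100 µM (0.37, edgeR adjusted p = 0.105), replicate 1 of the controls (0.37, adjusted p = 0.158) or replicate 3 of the controls (0.53, adjusted p = 0.058). FBN2, another coat protein gene, had a change of 0.03 ± 0.22 (edgeR adjusted p = 0.934).

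**Figure D5:**
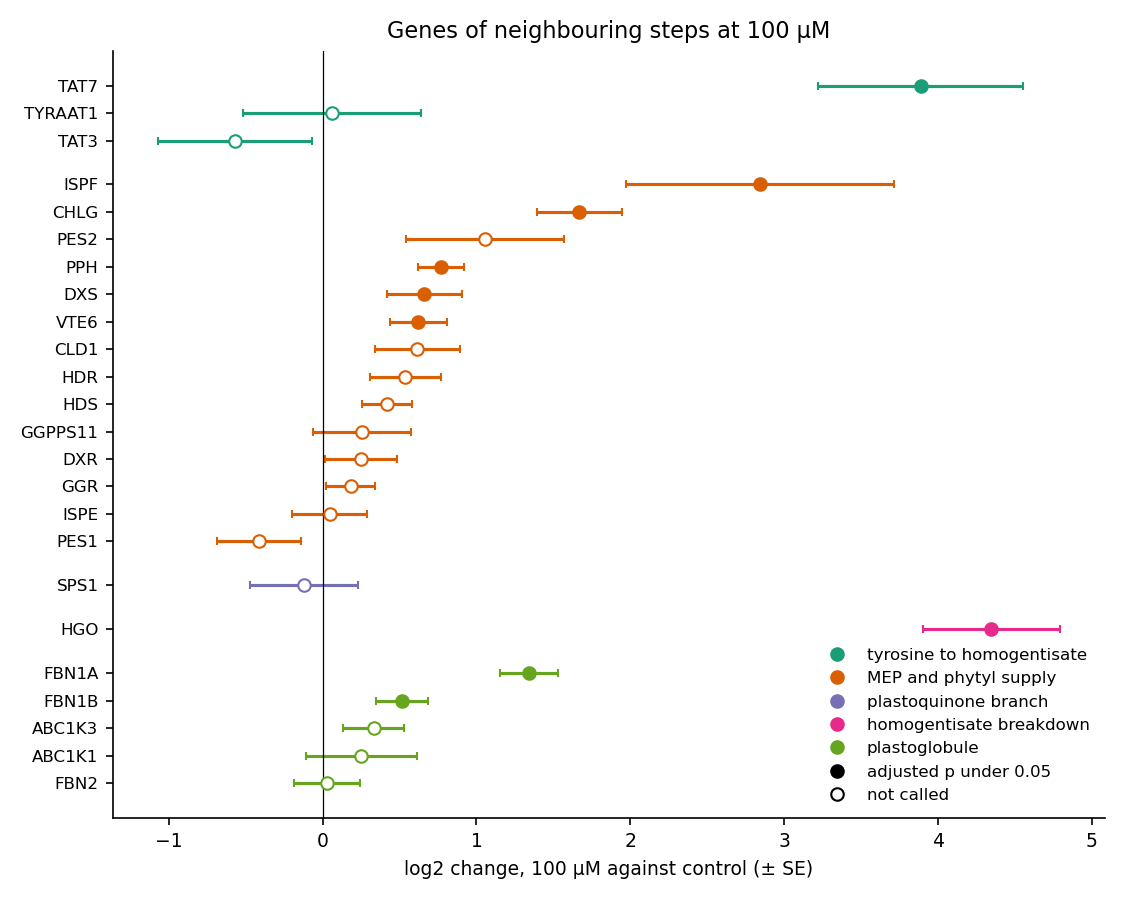
Log2 change at 100 µM against the controls (x axis; bars are ± SE from the edgeR fit) for the 24 tested genes of neighbouring steps, 1 row per gene, coloured by list. The 9 filled points passed an adjusted p of 0.05, all to the right of 0, with HGO (4.35) and TAT7 (3.89) farthest.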

How the data were processed

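Counts of 15 bulk MARS-seq libraries were analysed. Per the submitters' processing notes, bcl2fastq 2.17.1.14, cutadapt 1.8.3, STAR, HTSeq and DESeq2 were used; no source used here gives the genome build, the annotation or the use of strand. The deposited counts are raw, and their name says that no filter on molecular identifiers was used, so amplification copies may be included. The authors' normalized values (a signal scale) and their log2 values were not tested, and 0 other per-sample columns were present.

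Testing used edgeR 4.0.16 in R 4.3.3, with TMM factors, filterByExpr by group (10374 genes left), a group term over all libraries and a threshold of 0.05. The biological coefficient of variation was 20.6%. SE is the log2 change over the root of F, and intervals are 1.96 SE wide on each side. Correlations and components used log2 CPM (prior count 2). The test was checked on simulated data. Named were all 6 members, list genes called at 100 µM against the controls, the highest gene of each list, and for each tested member the 3 genes with the highest r. Other genes, such as TAT2 and FAH, were added after their values were seen. The members and lists were chosen with earlier results of these data known. Names, and genes that overlap or have near-identical ends (at least 75 bases at 90% in the last 500, blastn 2.17.0), came from TAIR10.1, in which 14103 identifiers matched.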

Additional observations from a re-analysis of the deposited data

How the results depend on the processing

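A total of 87 results were recomputed under up to 26 alternatives. The differences of HPD at 100 µM passed in every alternative run, at 1.28 to 1.41 against the controls (1.11 to 1.54 with 1 library left out) and 1.121 to 1.31 against the lower doses (0.96 to 1.39). Those of VTE5 passed wherever it was tested, at 2.88 to 3.27 (2.29 to 3.40) and 2.27 to 2.42 (2.09 to 2.62). In the main fit it entered the test through its counts at 100 µM, so these passes say little. Of the 758 such genes there, 77.3% were called higher against the controls and 88.9% against the lower doses. VTE5 was not tested after thinning, or with only 100 µM and the controls in the fit, where too few libraries passed the filter. Members called at 100 µM then numbered 1 against the controls in both settings, and after thinning to 834190 counts 1 against the lower doses, 1 in the joint test and 1 for the trend; the neighbouring genes called higher numbered 4 against the controls and 7 against the lower doses. With 1 library left out, members called for the trend ranged from 0 to 2. Some calls of neighbouring genes at 100 µM against the controls also depended on the processing. Over 8 alternatives that left out no library, that of DXS held in 3, that of FBN1B in 5 and that of VTE6 in 7. ISPF was tested in 6 of these alternatives and called in each.

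Small differences changed sign. After thinning HPD at 0.1 µM was -0.12. With the code digit as a term VTE1 was 0.56 at 0.1 µM, 0.58 at 1 µM and -0.61 at 10 µM, and VTE3 -0.094 at 0.1 µM and -0.036 at 1 µM. That fit used the 12 libraries other than 100 µM, among which only the controls held both digits, 7 and 8. VTE3 at 100 µM was -0.063 with no filter and -0.016 with only the compared groups. With 1 library left out VTE1 ranged from -0.58 to 0.56 at 0.1 µM, from -0.55 to 0.60 at 1 µM, from -0.56 to 0.58 at 100 µM and from -0.47 to 0.10 against the lower doses. VTE3 ranged from -0.087 to 0.24 at 0.1 µM, from -0.045 to 0.30 at 1 µM, from -0.052 to 0.27 at 10 µM, from -0.17 to 0.16 at 100 µM and from -0.064 to 0.0054 for the trend. VTE5 at 10 µM ranged from -1.08 to 0.023. The cause was not tested.

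Replicate numbers were not shown to pair the samples: r between same-numbered deviations was -0.137 to 0.268 over 30 pairs, 6 of them over 0.1. With the replicate block HPD was 1.34 and VTE5 2.97 at 100 µM, members called stayed at 2, and 10 neighbouring genes were called higher. DESeq2 was fitted to all 14190 genes without the edgeR filter, and its adjusted p-values used its own default filter on mean counts. With DESeq2 the median change of all genes was 0.11, against -0.02 over the 10374 filtered genes in edgeR, and 11 neighbouring genes were called higher. DESeq2 was not used for the joint test. Depth limits VTE1, VTE2, VTE4 and VTE5, for which 1 count is worth up to 1.137 CPM.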
